A study of Mus musculus with 12 samples.

Results

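In all, 9 long noncoding transcripts were followed across 4 treatments of mouse CD8 T cells: Malat1, Neat1, the small nucleolar RNA (snoRNA) host transcripts Gas5, Snhg1, Snhg3, Snhg5, Snhg8 and Snhg12, and Mir155hg. These 9 of the 55450 genes listed were chosen by symbol as abundant long noncoding RNAs, and the set was selected on a measured value, the high share of Malat1 counts under combined treatment. That level is therefore given as a description, with no test. All 9 passed the filter on low counts, which left 13636 genes. The cells were CD8 T cells from Pmel-1 mice, which carry a transgenic T cell receptor against a melanoma peptide, and all were wildtype for Ucp2. Every group was activated and then kept for 4 days with IL-2 at 10 ng/ml. Activation was by hgp100 peptide at 1 µM or by anti-CD3 at 2 µg/ml with anti-CD28 at 1 µg/ml, and which of these applied to these libraries is not given in the sources used here. The 4 groups of 3 libraries were vehicle, genipin (an iridoid from gardenia that inhibits UCP2, a carrier of the inner mitochondrial membrane), N-acetylcysteine (NAC, a thiol antioxidant), and genipin with NAC. Ages and doses of the compounds are not given in the sources used here, nor is it stated that the replicates of a group were separate animals or cultures. The p-values below measure the spread between these libraries, which may be technical.

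MALAT1 is a nuclear RNA found at nuclear speckles, the bodies that store splicing factors, and NEAT1 is the scaffold of paraspeckles, neighbouring nuclear bodies that hold RNA-binding proteins. The snoRNA hosts carry snoRNAs in their introns. SnoRNAs are cut from those introns and guide chemical modification or processing of ribosomal RNA, while several of the spliced host transcripts are translated only briefly and then degraded by nonsense-mediated decay. Mir155hg, also called BIC, is the precursor transcript of miR-155, a microRNA induced when lymphocytes are activated.

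On the mm10 genome, Malat1 lies on chromosome 19 at 5795690 to 5802672 on the minus strand, and Neat1 lies on the same chromosome and strand at 5824708 to 5845478. Gas5 lies on chromosome 1 at 161034422 to 161038539, Snhg1 on chromosome 19 at 8723475 to 8726443, Snhg12 on chromosome 4 at 132308623 to 132311024 and Mir155hg on chromosome 16 at 84703167 to 84715245, all on the plus strand. Snhg3 lies on chromosome 4 at 132348014 to 132353686, Snhg5 on chromosome 9 at 88521050 to 88522929 and Snhg8 on chromosome 3 at 123507552 to 123508404, all on the minus strand. In the GENCODE annotation the 6 Snhg and Gas5 genes hold 28 snoRNA genes on their own strand: 10 in Gas5, 8 in Snhg1, 5 in Snhg12, 2 each in Snhg3 and Snhg5, and 1 in Snhg8. Of these 28, 21 had 0 counts in all 12 libraries and the highest expected count of any was 14, so the host transcripts were measured here and their snoRNAs were not. Mir155hg holds no annotated snoRNA gene and holds Mir155, which had 0 counts in every library.

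Many genes of the translation machinery, several snoRNA hosts among them, begin with a run of pyrimidines (C or T) that starts with C, the terminal oligopyrimidine or TOP tract. The sequences around the RefSeq start sites are shown because 5 of the 6 hosts, which are compared below, hold a C followed by at least 4 pyrimidines that begins no more than 10 bases from the first transcribed base. Each window runs 5′ to 3′ on the gene's strand from 40 bases before the start to 25 bases into the gene (GRCm38.p6, the mm10 assembly), and capitals mark the tract. The windows are chr1:161035126-161035190 for Gas5, chr19:8723447-8723511 for Snhg1, chr4:132353662-132353726 for Snhg3, chr9:88522873-88522937 for Snhg5, chr3:123508312-123508376 for Snhg8, chr4:132308638-132308702 for Snhg12 and chr16:84712983-84713047 for Mir155hg.
Gas5: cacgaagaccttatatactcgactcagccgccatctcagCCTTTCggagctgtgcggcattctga
Snhg12: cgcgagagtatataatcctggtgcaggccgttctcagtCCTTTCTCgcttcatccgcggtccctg
Snhg8: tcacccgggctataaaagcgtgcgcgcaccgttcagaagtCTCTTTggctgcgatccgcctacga
Snhg5: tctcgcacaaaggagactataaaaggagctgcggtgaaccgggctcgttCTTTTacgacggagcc
Snhg3: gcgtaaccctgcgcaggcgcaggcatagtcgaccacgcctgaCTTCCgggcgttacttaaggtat
Snhg1: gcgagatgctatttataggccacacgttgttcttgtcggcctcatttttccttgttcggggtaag
Mir155hg: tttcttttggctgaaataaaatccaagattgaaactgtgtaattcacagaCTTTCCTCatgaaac
RefSeq gives Gas5 another start upstream, whose window holds no such run. The RefSeq start used for Mir155hg lies inside the GENCODE gene, which begins upstream of this window at 84703167. Snhg1 and Malat1 held none by this definition, Mir155hg held one, and 8 of the 9 members matched an entry. The same definition was met by 30.7% of the 32851 promoters in the table, so a match is a description of the letters and not a site.

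The Malat1 start region is shown because the level of Malat1 differed most in the combined treatment. It covers chr19:5802623-5802922, from 250 bases before the start to 50 bases into the gene, and capitals mark its single match to ACGTG, the core of the hypoxia response element, searched on both strands.
Malat1: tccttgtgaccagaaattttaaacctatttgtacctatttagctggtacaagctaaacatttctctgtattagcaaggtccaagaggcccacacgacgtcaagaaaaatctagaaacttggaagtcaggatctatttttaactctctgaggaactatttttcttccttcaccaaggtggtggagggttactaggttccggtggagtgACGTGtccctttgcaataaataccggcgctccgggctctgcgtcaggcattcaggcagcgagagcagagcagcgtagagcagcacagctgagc
ACGTG was present in 19.6% of all promoters of that length, and among the members also in those of Snhg1 and Snhg5. The letters TGANTCA, an AP-1 motif present in 7.81% of all promoters, were found in none of the 8 members' promoters searched, and neither was CACGTG, the E-box that contains ACGTG, present in 7.15%. A loose NF-kB motif, GGG and CC with any 5 bases between them, matched in those of Gas5 and Snhg8 and in 50.8% of all promoters. These motifs were searched on both strands, and Neat1 was the member not searched.

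The 12 libraries held 20838894 to 31098648 expected counts. CD8 T cell markers were high in all of them, with Cd8a at 171 to 379 and Cd3e at 234 to 330 TPM (a level corrected for transcript length and library size). The B cell genes Ms4a1 and Pax5 and the myeloid genes Csf1r, Adgre1 and Lyz2 reached at most 0.36 TPM. Other genes of those lists were detected. Among B cell genes Ighm ran from 29.7 to 168 TPM and Cd79b from 1.09 to 12.3. Among myeloid genes Itgam ran from 1.27 to 10.9 TPM and Cd14 from 0.4 to 2.98. Replicate 1 of the combined treatment stood apart from the other 2 libraries of its group: the chi-square of the counts per degree of freedom was 7.23 and 8.29 against them, and 2.09 between them, where pairs in the other groups gave 2.23 to 3.01. Some results of the combined treatment are therefore also given without it, and the rest include it. Its mitochondrially encoded genes took the highest share of its group, in which that share ran from 1.63% to 1.81%, and their share was 1.59% to 1.64% with vehicle, 2.06% to 2.19% with genipin and 1.59% to 1.63% with NAC. In these bulk libraries, fewer cells of a type and less RNA per cell cannot be told apart.

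Per transcript length, Gas5 was the highest member, at 971 ± 13.4 TPM with vehicle (SD, n = 3), the 158th highest gene and the fourth among 13374 genes of long noncoding types. Snhg1 followed at 254 ± 10.4 TPM and Snhg8 at 142 ± 5.73 TPM. Snhg5 stood at 83.7 ± 1.16, Snhg12 at 73.4 ± 1.95, Malat1 at 62.5 ± 4.73, Snhg3 at 49.0 ± 0.24 and Neat1 at 44.7 ± 1.83 TPM. No neighbours in this order had overlapping vehicle libraries. Mir155hg, at 10.7 ± 0.43 TPM, ranked 6849th, so the description as abundant does not hold for it. Together the members took 0.0843% to 0.0876% of the counts with vehicle, 0.0680% to 0.0707% with genipin, 0.1003% to 0.107% with NAC and 0.119% to 0.132% with both compounds.

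Malat1 stood highest in the cells given both compounds. Its share of all counts was 0.0245%, 0.0232% and 0.0227% in the 3 vehicle libraries and 0.0257%, 0.0262% and 0.0249% with genipin. It was 0.0255%, 0.0278% and 0.0230% with NAC, and 0.0546%, 0.0471% and 0.0482% with genipin and NAC, in the order of the replicates. The libraries of the combined treatment lay above all 9 others, the range of the NAC group overlapped those of vehicle and genipin, and the 3 genipin libraries lay slightly above the 3 vehicle libraries, with a ratio of mean shares of 1.09. The mean share with both compounds was 2.13 times that of vehicle, and the lowest library of the combined treatment was 1.92 times the highest vehicle library. Against genipin the ratio of means was 1.96, and against NAC it was also 1.96.

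Replicate 1, the highest of its group, did not carry that level alone. Without it the ratio to vehicle was 2.03. The deposited TPM, which are corrected for length, put Malat1 at 127, 124 and 123 in the combined treatment against 57.4 to 66.8 with vehicle, and there the 3 libraries lay close together. By TPM, Malat1 ranked 1789th among genes with vehicle and 872nd with both compounds. On the log2 scale of the model, Malat1 was 1.05 ± 0.05 (SE) above vehicle, 0.99 ± 0.05 above genipin and 1.05 ± 0.05 above NAC. Without replicate 1 these differences were 0.99, 0.93 and 0.99.

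Neither compound alone moved Malat1 past the test. With genipin the log2 fold change was 0.06 ± 0.06 (adjusted p = 0.38, quasi-likelihood test of edgeR, adjusted by Benjamini-Hochberg over all genes tested, used for every adjusted p below unless another test is named). With NAC it was -0.003 ± 0.06 (adjusted p = 0.964), a value near 0 whose sign turned under several settings. The summed level of 6 myeloid marker genes was also highest with both compounds. It was 3.06 to 3.88 TPM with vehicle, 4.21 to 4.37 with genipin, 3.94 to 4.48 with NAC and 11.5 to 13.1 with both. Of those 6 genes only Itgam, an integrin also made by T cells, and Cd14 were tested. Both were higher with both compounds than with vehicle, and both also moved with each compound alone. Itgam had log2 fold changes of -0.85 with genipin and 0.50 with NAC, and Cd14 had 0.97 and -1.47. Cd14 was highest with genipin alone, at a mean of 3.13 CPM against 2.26 with both. Of the myeloid genes not tested, Lyz2 reached at most 0.36, C1qa 0.18, Adgre1 0.05 and Csf1r 0.02 TPM in any library. The part of these marker differences in the level of Malat1 was not tested.

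**Figure D1:**
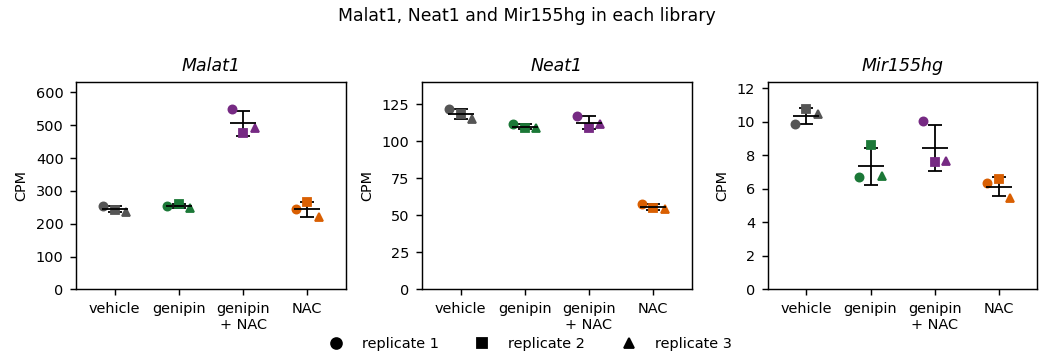
Level of Malat1, Neat1 and Mir155hg in each library, in CPM (counts relative to the library total scaled by TMM factors, vertical axis from 0), by treatment (horizontal axis). Marker shapes are replicates and the bar is the mean ± SD of 3 libraries; Malat1 stands at 477 to 550 CPM with both compounds against 220 to 267 in the other 9 libraries, and Neat1 at 54.4 to 57.8 CPM with NAC against 109 to 122 in the other 9.

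Neat1 was lower with NAC alone, and this difference depended on genipin. It measured 122, 118 and 115 CPM (counts relative to the library total, scaled by the TMM factors) in the vehicle libraries and 112, 109 and 109 with genipin. It measured 57.8, 55.2 and 54.4 CPM with NAC and 117, 109 and 112 with both compounds. The 3 NAC libraries lay below all 9 others, which ran from 109 to 122 CPM, and the combined treatment overlapped both vehicle and genipin. With NAC, Neat1 fell by 1.09 on the log2 scale (SE 0.04, adjusted p = 8.19e-16). When NAC was added to genipin the log2 fold change was 0.04 ± 0.04 (adjusted p = 0.396). The difference between these responses, the interaction of the compounds, was 1.12 ± 0.05 on the log2 scale (adjusted p = 9.73e-14), and 1.09 without replicate 1 of the combined treatment.

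The small difference of Neat1 with genipin, -0.11 ± 0.04 on the log2 scale (adjusted p = 0.0128), rested on the scaling and on 1 library. Without TMM factors it was -0.04 (adjusted p = 0.321), and without vehicle replicate 1 it was -0.09 (adjusted p = 0.0764). With both compounds against vehicle the value was -0.07 ± 0.04 (adjusted p = 0.088), and -0.10 without replicate 1 of that group (adjusted p = 0.0135). Neat1 is made in a short form of 3004 bases and a long form of 20771 bases, of which the long form is the scaffold. The abundance-weighted transcript length deposited with the counts averaged 3074, 3289, 3181 and 3257 bases for vehicle, genipin, both and NAC, all near the short form.

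All 6 snoRNA hosts were lower with genipin and passed the test, and with Neat1 and Mir155hg 8 of the 9 members were called, all 8 lower, where 61% of all genes tested were called, 31% lower and 29.9% higher. The median log2 fold change of the 6 hosts was -0.66, beside -0.01 over all genes tested.

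Gas5, named for its rise in growth-arrested cells, measured 284, 290 and 283 CPM with vehicle and 161, 166 and 162 CPM with genipin. No library of either group overlapped the other. It fell by 0.81 on the log2 scale (SE 0.03, adjusted p = 2.23e-15).

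Snhg5, host of Snord50a and Snord50b, measured 51.8, 51.9 and 51.2 CPM with vehicle and 23.8, 25.9 and 23.6 CPM with genipin. It had the largest change of the members, a fall by 1.08 on the log2 scale (SE 0.06, adjusted p = 7.23e-13), and was the only member past 2-fold, a rule met by 9.8% of genes tested. Snhg12 measured 34.9, 36.0 and 33.1 CPM with vehicle and 19.6, 22.4 and 18.5 CPM with genipin, and fell by 0.79 (SE 0.07, adjusted p = 2.72e-09).

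Snhg8, host of Snora24, stood at 29.3 to 32.0 CPM with vehicle and 20.03 to 22.4 CPM with genipin. It fell by 0.53 on the log2 scale (SE 0.07, adjusted p = 1.97e-06). Snhg1, the host with the second highest level, stood at 108 to 112 CPM with vehicle and 80.3 to 82.2 CPM with genipin, and fell by 0.43 on the log2 scale (SE 0.04, adjusted p = 1.9e-08). For both genes the ranges of the groups did not overlap.

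Snhg3, host of Snora73a and Snora73b, changed least: 9.34, 8.22 and 9.07 CPM with vehicle against 6.92, 7.19 and 7.77 CPM with genipin, a fall by 0.28 on the log2 scale (SE 0.10, adjusted p = 0.0193). This call was lost when vehicle replicate 1 (adjusted p = 0.0711), vehicle replicate 3 (adjusted p = 0.0601) or genipin replicate 1 (adjusted p = 0.079) was left out, and without TMM factors (adjusted p = 0.0668). Exon sequence of Snhg3 lies within the span of Rcc1, a gene on the same strand with 887 to 2097 expected counts per library. Whether exons of Rcc1 cover that sequence was not examined, and where they do, reads could be split between the genes. Gas5 overlaps Zbtb37 on the opposite strand, which had 301 to 656 expected counts, and whether counting used the strand is not given in the sources used here.

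**Figure D2:**
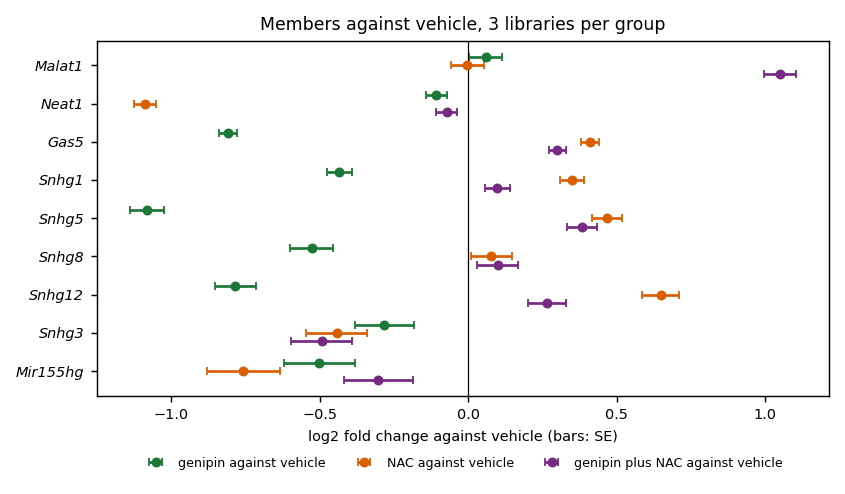
Log2 fold change against vehicle (horizontal axis) of each member with genipin, NAC or both, as points with bars of 1 SE, from 3 libraries per group. With genipin all 6 hosts lie left of 0, from -1.08 for Snhg5 to -0.28 for Snhg3, and with both compounds Malat1 lies at 1.05; that Malat1 value helped to choose the gene.

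NAC alone separated the members. Gas5, Snhg1, Snhg5 and Snhg12 rose, Snhg3, Neat1 and Mir155hg fell, and Malat1 and Snhg8 did not pass the test. These are 4 higher and 3 lower of 9, where 59.7% of genes tested were called, 29.6% higher and 30% lower. Without TMM factors the 4041 higher and 4093 lower genes become 5615 and 2700, since every log2 fold change in this comparison shifts by 0.12. All 7 of the members' calls and their directions were the same without those factors.

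Snhg12 rose most, to 55.8, 54.3 and 52.8 CPM, by 0.65 ± 0.06 on the log2 scale (adjusted p = 1.43e-08). Snhg5 rose to 67.8, 74.0 and 72.0 CPM, by 0.47 ± 0.05 (adjusted p = 9.37e-08), and Gas5 to 372, 386 and 380 CPM, by 0.41 ± 0.03 (adjusted p = 1.11e-10). Snhg1 rose to 138, 145 and 137 CPM, by 0.35 ± 0.04 (adjusted p = 3.12e-07). All 3 NAC libraries lay above all 3 vehicle libraries for each of these 4 hosts.

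Snhg3 went the other way, to 6.12, 7.03 and 6.40 CPM, and fell by 0.44 on the log2 scale (SE 0.10, adjusted p = 0.000796). Snhg8 measured 34.7, 33.7 and 29.2 CPM, overlapping vehicle, with a log2 fold change of 0.08 ± 0.07 (adjusted p = 0.352). Without TMM factors Snhg8 passed the test at 0.20 (adjusted p = 0.0186).

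Mir155hg was lower with either compound. It measured 9.84, 10.8 and 10.5 CPM with vehicle, 6.69, 8.62 and 6.75 with genipin, 6.35, 6.57 and 5.48 with NAC, and 10.0, 7.59 and 7.68 with both. The genipin and NAC libraries all lay below the vehicle libraries, and those of the combined treatment overlapped vehicle. It fell by 0.50 on the log2 scale with genipin (SE 0.12, adjusted p = 0.00102) and by 0.76 with NAC (SE 0.12, adjusted p = 1.72e-05).

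The microRNA that Mir155hg carries is given because it is the product the transcript is known for, and capitals mark the seed, bases 2 to 8 from the 5′ end, which pairs with target messages. RefSeq places the arms in the hairpin at chr16:84714143-84714165 and chr16:84714182-84714202 on the plus strand.
mmu-miR-155-5p: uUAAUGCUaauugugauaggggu
mmu-miR-155-3p: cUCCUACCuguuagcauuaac
The level of the mature microRNA was not measured in these libraries. Of 10 tested genes for microRNA processing and silencing, 8 rose and none fell with genipin, where 29.9% of all genes tested were called higher and 31% lower, among them Tnrc6b (0.40 ± 0.04, adjusted p = 4.67e-09) and Drosha, the nuclear enzyme that cuts the hairpin free (0.25 ± 0.05, adjusted p = 0.000146), both as log2 fold changes. With NAC 6 of the 10 rose and 2 fell, where 29.6% of all genes were called higher and 30% lower. With both compounds against vehicle 5 rose and 5 fell, where 28.5% were called higher and 28.9% lower.

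With both compounds the 5 hosts other than Snhg3 stood near or above vehicle and far above genipin. Against vehicle, 5 of the 8 members other than Malat1 were called, 3 higher and 2 lower, where 57.4% of genes tested were called, 28.5% higher and 28.9% lower. Gas5 measured 364, 343 and 347 CPM, Snhg5 measured 73.3, 65.2 and 63.8 CPM and Snhg12 measured 45.3, 40.3 and 39.5 CPM, each above all vehicle libraries. Their log2 fold changes against vehicle were 0.30 ± 0.03, 0.38 ± 0.05 and 0.27 ± 0.06, with adjusted p of 1.67e-08, 1.64e-06 and 0.00126. Replicate 1 was the highest of its group for all of them. Without it the values were 0.28, 0.32 and 0.21.

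Snhg1 and Snhg8 overlapped vehicle, at 109 to 126 CPM and 30.7 to 35.1 CPM, with log2 fold changes of 0.10 ± 0.04 (adjusted p = 0.0536) and 0.10 ± 0.07 (adjusted p = 0.234). Snhg1 passed when replicate 3 of the combined treatment was left out, at 0.15 (adjusted p = 0.00229). With the replicate number as a block it was also called, at 0.10 (adjusted p = 0.0439), as it was without TMM factors (0.14, adjusted p = 0.00951), with a filter at a mean of 5 CPM (0.12, adjusted p = 0.0162) and with effective-length offsets (0.22, adjusted p = 0.000906). Snhg3, at 5.72 to 6.85 CPM, lay below every vehicle library and fell by 0.49 (SE 0.10, adjusted p = 0.000296). Mir155hg fell by 0.30 (SE 0.12, adjusted p = 0.0321), a call lost without vehicle replicate 2 (adjusted p = 0.0884), vehicle replicate 3 (0.0791), or replicate 2 (0.127) or 3 (0.139) of the combined treatment. It was also lost without TMM factors (-0.26, adjusted p = 0.0626) and with effective-length offsets (-0.30, adjusted p = 0.077).

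Against genipin alone, 5 of the 8 members were called, all higher, where 69.3% of genes tested were called and 35% were called higher. These were Snhg5 at 1.47 ± 0.06, Gas5 at 1.11 ± 0.03, Snhg12 at 1.05 ± 0.07, Snhg8 at 0.63 ± 0.07 and Snhg1 at 0.53 ± 0.04 on the log2 scale, with adjusted p from 4.49e-18 for Gas5 to 1.06e-07 for Snhg8. Snhg3 had -0.21 ± 0.10 (adjusted p = 0.0777), and passed without replicate 1 of the combined treatment at -0.27 (adjusted p = 0.0424). Mir155hg had 0.20 ± 0.12 (adjusted p = 0.152), and passed without genipin replicate 2 at 0.32 (adjusted p = 0.0332).

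Against NAC alone, 5 of the 8 were called, 2 higher and 3 lower, where 53.1% of genes tested were called, 26.6% higher and 26.5% lower. The split over all genes, 3632 higher and 3607 lower, becomes 2650 and 4733 without TMM factors. Neat1 was higher by 1.02 ± 0.04 (adjusted p = 3.42e-15) and Mir155hg by 0.45 ± 0.12 (adjusted p = 0.00421). The Mir155hg value ran from 0.32 to 0.52 over the settings run, and replicate 1 of the combined treatment was the highest of its group for this gene. Snhg12 fell by 0.38 (SE 0.06, adjusted p = 2.24e-05), Snhg1 by 0.25 (SE 0.04, adjusted p = 2.74e-05) and Gas5 by 0.11 (SE 0.03, adjusted p = 0.00309). Snhg5 had -0.08 ± 0.05 (adjusted p = 0.174) and passed without replicate 1 of the combined treatment at -0.15 (adjusted p = 0.00694) and without TMM factors at -0.16 (adjusted p = 0.011). These comparisons share their libraries of the combined treatment and are not independent of each other.

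**Figure D3:**
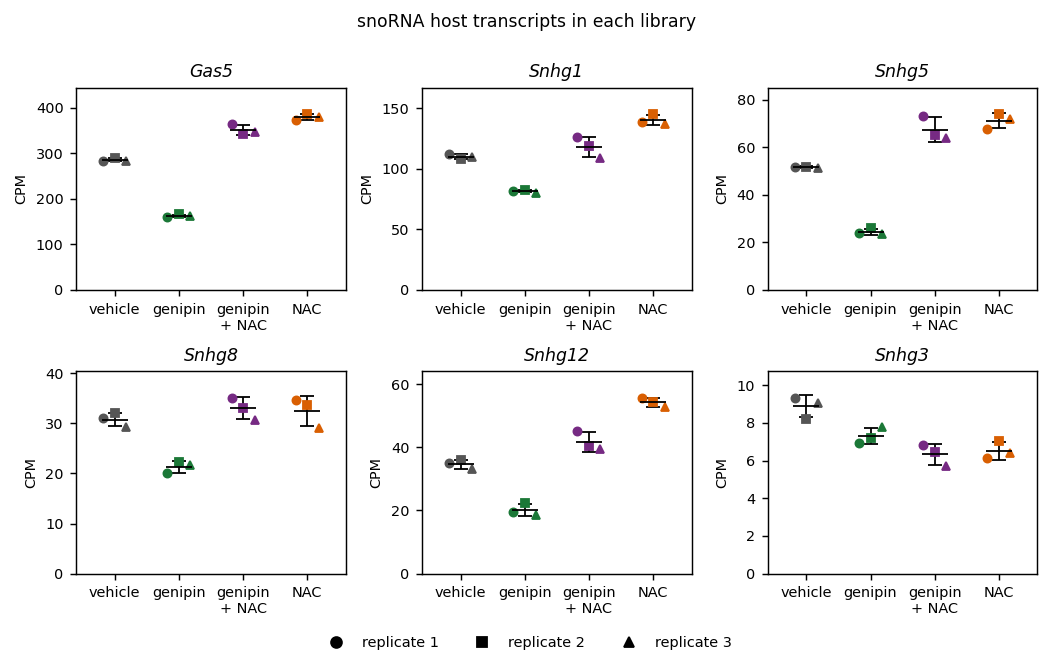
Level of the 6 snoRNA hosts in each library, in TMM-scaled CPM (vertical axis from 0), by treatment (horizontal axis). Marker shapes are replicates and the bar is the mean ± SD of 3 libraries; Gas5 stands at 161 to 166 CPM with genipin, 283 to 290 with vehicle, 343 to 364 with both and 372 to 386 with NAC, and Snhg3 is highest with vehicle.

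For Gas5, Snhg1 and Snhg12 the order of the groups by mean CPM was genipin, vehicle, both, NAC. Neighbours in that order did not overlap for Gas5 and Snhg12, and vehicle and the combined treatment overlapped for Snhg1. Snhg5 had the same order, with overlap of the combined treatment and NAC. Snhg8 was lowest with genipin, and its other 3 groups overlapped. Snhg3 had the order both, NAC, genipin, vehicle, and of its neighbours only genipin and vehicle did not overlap.

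NAC differed in its effect on most members according to whether genipin was present. The interaction is the NAC difference with genipin minus that without it. It was called for 7 of the 8 members other than Malat1, all 7 positive, where 51.4% of genes tested were called and 27.4% were positive, and its split over all genes, 3733 positive and 3275 negative, becomes 2618 and 4806 without TMM factors. Besides Neat1 it was 1.00 ± 0.08 for Snhg5 (adjusted p = 4.14e-10), 0.70 ± 0.04 for Gas5 (adjusted p = 7.33e-12), 0.55 ± 0.10 for Snhg8 (adjusted p = 9.33e-05) and 0.40 ± 0.09 for Snhg12 (adjusted p = 0.000959). For Mir155hg it was 0.96 ± 0.17 (adjusted p = 8.28e-05) and for Snhg1 0.18 ± 0.06 (adjusted p = 0.0142). The Snhg1 value was 0.04 without TMM factors (adjusted p = 0.621). Snhg3 had 0.23 ± 0.15 (adjusted p = 0.195). The Malat1 value of 0.99 ± 0.08 is given without a test.

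**Figure D4:**
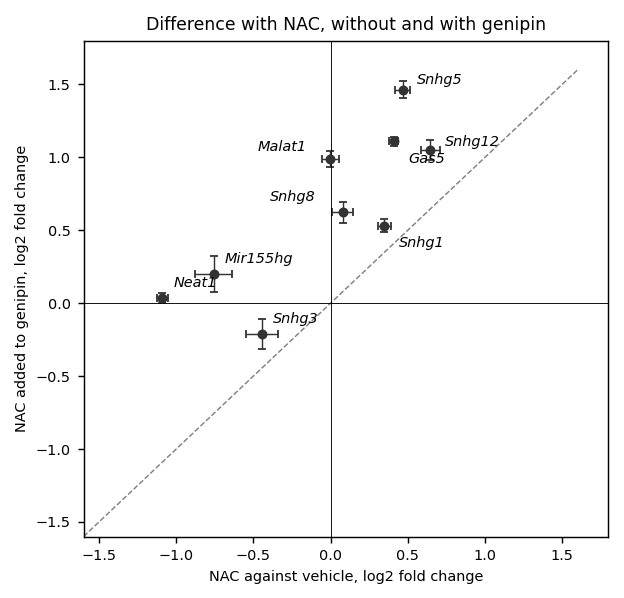
Log2 fold change with NAC in cells without genipin (horizontal axis) and with genipin (vertical axis), 1 point per member with bars of 1 SE, and a dashed line where both are equal. All 9 members lie above the line; Neat1 is at -1.09 and 0.04, Gas5 at 0.41 and 1.11, and Malat1, whose level with both compounds helped to choose it, at -0.003 and 0.99.

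The deposited tables also give, for each gene and library, the mean length of its transcripts weighted by their estimated abundance. It shows which annotated isoforms the reads were assigned to, and it played no part in the choice of members. For 5 hosts this length was greater with genipin and smaller with NAC. Snhg12 averaged 734 ± 13.3 bases with vehicle, 848 ± 47.8 with genipin, 671 ± 6.73 with both and 660 ± 6.29 with NAC (SD, n = 3). Each genipin library lay above each vehicle library, and the NAC libraries lay below all vehicle libraries. Gas5 averaged 542 ± 1.74, 571 ± 2.54, 532 ± 1.02 and 530 ± 0.92 bases in the same order of groups, and Snhg5 889 ± 2.81, 936 ± 10.0, 859 ± 2.64 and 835 ± 3.22 bases.

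Each compound was tested within the strata of the other by an exact two-sided permutation test with 400 arrangements, whose smallest possible p is 0.005, adjusted over 16 tests. The values tested are means of the difference over both strata. With NAC the length changed by -125 bases for Snhg12, -65.5 for Snhg5, -53.8 for Snhg1, -25.5 for Gas5 and -5.87 for Snhg8, each with exact p = 0.005 (adjusted p = 0.0114). With genipin it was greater by 62.5 bases for Snhg12 (exact p = 0.015, adjusted p = 0.0218), by 35.4 for Snhg5 and 17.2 for Snhg1 (exact p = 0.005, adjusted p = 0.0114 for each), and by 17.6 for Snhg3, 15.3 for Gas5 and 3.69 for Snhg8 (exact p = 0.01, adjusted p = 0.016 for each). For Snhg12 the genipin difference was 114 bases without NAC and 10.8 bases with it, and for Gas5, whose NAC and combined libraries overlapped, it was 28.9 and 1.76 bases, while for Snhg3 it was 17.3 and 17.96 bases. The difference between strata was not tested. Of the 16 tests 11 passed. Snhg3 with NAC, at -9.26 bases (exact p = 0.095, adjusted p = 0.127), did not, nor did Malat1 and Neat1 with either compound, and the length of Mir155hg was 1264 bases in every library.

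Most annotated isoforms of Gas5 and Snhg1 are of the retained intron type, up to 2556 bases for Gas5 and 2728 bases for Snhg1, beside spliced forms from 346 and 408 bases. The lengths of Malat1 varied within groups, from 3882 to 4629 bases among the NAC libraries, while its longest annotated transcript has 6983 bases. Since TPM divide by length, the length differences enter the TPM of the hosts and not their CPM. With offsets from the effective lengths, the fall of Snhg12 with genipin was 1.07 in place of 0.79 on the log2 scale.

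**Figure D5:**
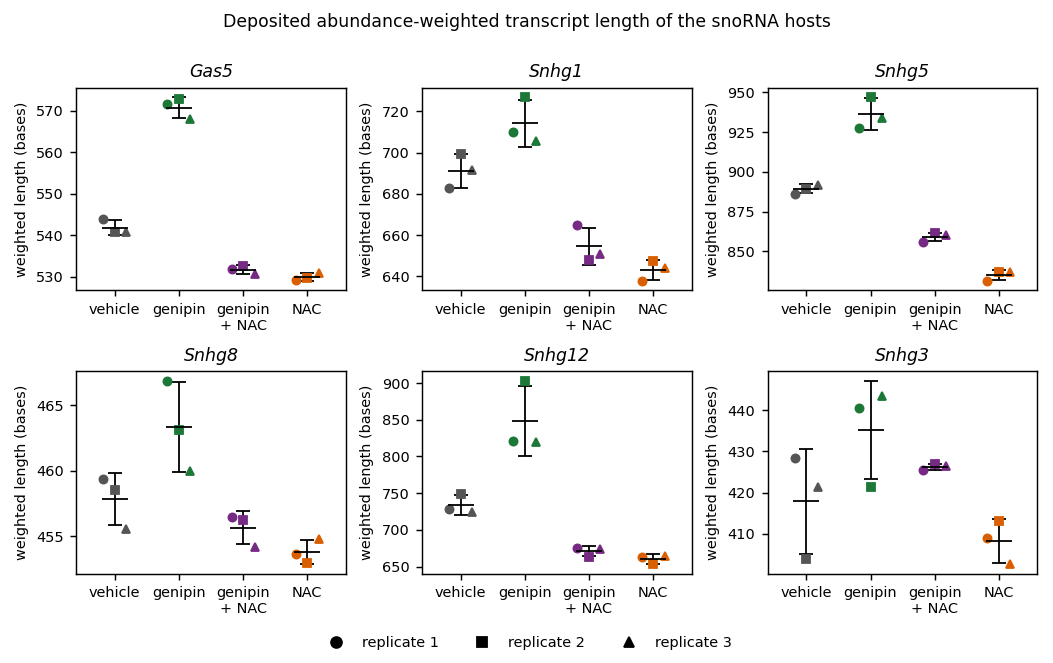
Abundance-weighted transcript length in bases as deposited (vertical axes, which do not start at 0 and differ between panels) of the 6 snoRNA hosts in each library, by treatment. Marker shapes are replicates and the bar is the mean ± SD of 3 libraries; Gas5 lies at 568 to 573 bases with genipin, 541 to 544 with vehicle and 529 to 533 in both groups with NAC.

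Of 25 other tested genes that host snoRNAs, most of them genes of ribosomal proteins and translation factors, 18 fell and 2 rose with genipin, with a median log2 fold change of -0.24. With NAC 17 fell and 4 rose, with a median of -0.21. With both compounds against vehicle 14 fell and 4 rose, with a median of -0.14. Over all genes tested 31% were called lower and 29.9% higher with genipin, 30% lower and 29.6% higher with NAC, and 28.9% lower and 28.5% higher with both compounds, with medians of -0.01, -0.01 and 0.005 on the log2 scale. Of the 17 protein-coding hosts among them, 11 fell and 1 rose with both compounds. With genipin 14 fell and 1 rose, and with NAC 15 fell and 1 rose. Not all of these NAC falls were seen in TPM: Rpl4 averaged 4017 ± 48.4 TPM with vehicle and 4418 ± 56.3 with NAC. The summed TPM of the whole list of other hosts was 54816 to 55160 with vehicle and 54039 to 54405 with NAC. Without TMM factors every log2 fold change with NAC shifts by 0.12. Zfas1, a noncoding host, fell by 1.23 with genipin (SE 0.04, adjusted p = 6.81e-17), and the ribosomal protein genes Rpl3 and Rps3 fell by 0.55 (SE 0.02, adjusted p = 3.98e-14) and 0.49 (SE 0.03, adjusted p = 4.81e-13), all on the log2 scale. Among the 8 noncoding hosts outside the members, 4 fell and 1 rose with genipin, and 3 rose and 2 fell with NAC. With both compounds 3 of them rose and 3 fell. Epb41l4aos, named after its values were seen, moved as Gas5 did, with log2 fold changes of -1.20 ± 0.08 with genipin (adjusted p = 6.54e-11) and 0.67 ± 0.07 with NAC (adjusted p = 6.66e-08).

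Of 16 tested genes for the proteins that bind snoRNAs or assemble them into particles, none rose in TMM-scaled counts in the 3 comparisons with vehicle. Of these, 8 fell with genipin, 8 fell with NAC and all 16 fell with both, where 31%, 30% and 28.9% of all genes were called lower, with medians of -0.11, -0.13 and -0.63 on the log2 scale. Ruvbl2, an assembly factor, fell by 0.36 with genipin (SE 0.04, adjusted p = 1.35e-07), and Fbl, the methyltransferase fibrillarin, fell by 0.40 with NAC (SE 0.03, adjusted p = 1.62e-10). The summed TPM of the list did not fall under genipin: it was 1247 to 1285 in vehicle libraries and 1356 to 1379 in genipin libraries. NAC libraries, at 1225 to 1256 TPM, overlapped vehicle, and the combined treatment lay lower, at 795 to 835 TPM. Leaving out the TMM factors shifts every log2 fold change by 0.065 under genipin, 0.12 under NAC and 0.041 under the combined treatment.

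Of 14 tested genes of nonsense-mediated decay, which degrades several spliced hosts, 9 rose and none fell with genipin, where 29.9% of all genes were called higher and 31% lower. With NAC 2 rose and 5 fell, where those shares were 29.6% and 30%, so the NAC count is near or below that of all genes. With both compounds against vehicle 2 rose and 7 fell, where those shares were 28.5% and 28.9%. Upf1, the central helicase, rose by 0.42 with genipin (SE 0.04, adjusted p = 5.93e-09). Smg5 rose by 0.39 with genipin (SE 0.04, adjusted p = 2.07e-08) and fell by 0.34 with NAC (SE 0.04, adjusted p = 2.61e-07), while Smg6, the endonuclease, rose with each compound, by 0.54 with genipin (SE 0.04, adjusted p = 1.39e-10) and by 0.32 with NAC (SE 0.04, adjusted p = 7e-07).

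Of 15 paraspeckle protein genes 9 rose and 2 fell with genipin, 2 rose and 6 fell with NAC, and 11 fell and none rose with both compounds. The shares of all genes called higher and lower were 29.9% and 31% with genipin, 29.6% and 30% with NAC, and 28.5% and 28.9% with both, so the 6 of 15 with NAC is near that of all genes. Sfpq, a core paraspeckle protein that binds Neat1, rose by 0.55 with genipin (SE 0.04, adjusted p = 1.18e-10). With NAC its TMM-scaled counts fell by 0.28 (SE 0.04, adjusted p = 4.53e-06). This fall was not seen in TPM, where Sfpq averaged 120 ± 3.72 with vehicle and 124 ± 1.56 with NAC. The summed share of all counts of the 15 genes was 0.263% to 0.269% with vehicle and 0.275% to 0.277% with NAC. Of 13 nuclear speckle protein genes 8 rose and 2 fell with genipin, 3 rose and 7 fell with NAC, and 2 rose and 9 fell with both. The splicing factor Srsf1 rose by 0.60 with genipin (SE 0.04, adjusted p = 3.07e-11) and Srsf6 fell by 0.67 with NAC (SE 0.03, adjusted p = 2.36e-13).

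Of 15 genes that neighbour Malat1 and Neat1, 4 rose and 2 fell with both compounds, where 28.5% of all genes were called higher and 28.9% lower. Their log2 fold changes had a median of 0.07. The neighbour Ltbp3, which encodes a protein that binds latent TGF-beta, rose more than Malat1 differed: it averaged 13.4 CPM with vehicle, 16.1 with genipin, 41.5 with both and 21.4 with NAC, and rose by 1.64 ± 0.09 with both compounds (adjusted p = 1.41e-12). With genipin alone 8 neighbours rose and 2 fell, where 29.9% of all genes were called higher and 31% lower. With NAC alone 5 neighbours rose and 2 fell, where 29.6% of all genes were called higher and 30% lower. Among 13 other long noncoding RNAs 6 rose and 5 fell with genipin, where 29.9% of all genes were called higher and 31% lower, including Tug1 (0.64 ± 0.05, adjusted p = 9.97e-10) and Mir22hg (-0.95 ± 0.07, adjusted p = 2.99e-10). With NAC 3 rose and 4 fell, near the 29.6% and 30% of all genes. The nuclear RNA Rn7sk, transcribed by polymerase III, fell by 1.59 with NAC (SE 0.14, adjusted p = 2.38e-09) and rose by 0.45 with genipin (SE 0.11, adjusted p = 0.00175).

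Markers of other cells also moved with treatment. The summed level of 5 natural killer cell marker genes was 116 to 120 TPM with vehicle and 279 to 305 with genipin. It was 39.5 to 41.9 TPM with NAC and 79.9 to 82.8 with both, and Fcer1g alone ran from 17 to 229 TPM. All 5 rose with genipin and all 5 fell with NAC, where 29.9% of all genes were called higher and 30% lower, respectively. With both compounds 2 rose and 1 fell, where 28.5% were called higher and 28.9% lower. Their summed share of counts was 0.0103% to 0.0106% with vehicle and 0.0106% to 0.0111% with both. The summed level of 6 B cell genes was 32.5 to 33.2 TPM with vehicle and 49.6 to 53.7 with genipin. It was 170 to 180 TPM with NAC and 126 to 128 with both. Ighm took most of it, with Ms4a1 and Pax5 at or near 0. Cd79b and Cd4 had the group order of Gas5, Snhg1, Snhg5 and Snhg12, and the other tested gene of each list did not. Cd79b averaged 1.31 CPM with genipin, 2.65 with vehicle, 5.82 with both and 9.79 with NAC. Cd4 averaged 0.36, 1.25, 2.65 and 5.11 CPM in that order. Ighm averaged 59.5 CPM with genipin and 39.3 with vehicle, with a log2 fold change of 0.60 ± 0.04 (adjusted p = 7.86e-11). Zbtb7b had 0.002 ± 0.06 with genipin (adjusted p = 0.982). Cd4 fell by 1.85 on the log2 scale with genipin (SE 0.33, adjusted p = 6.19e-05) and had 2.02 ± 0.21 with NAC, at no more than 2.32 TPM in any library. The summed level of 3 CD4 T cell markers was 15.3 to 18.9 TPM with vehicle, 18.2 to 21.4 with genipin, 36.5 to 42.8 with NAC and 21.2 to 26.2 with both, and Foxp3 reached at most 0.16 TPM. Activated CD8 T cells express several of the natural killer genes, and the part of these differences in the levels of the hosts was not tested.

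The genes whose log2 CPM followed a member most closely over the 12 libraries were sought among 9478 genes with a mean of at least 5 CPM, as a description, since libraries of 4 groups share those groups. For Malat1 they were Ccpg1 (Pearson r = 0.98), a factor of endoplasmic reticulum turnover, Cdh1 (r = 0.98), which encodes E-cadherin, Btg1, Setd5 and Jarid2. Ccpg1 averaged 35.9, 37.8, 55.4 and 36.7 CPM with vehicle, genipin, both and NAC, and Cdh1 averaged 12.9, 14.2, 44.8 and 13.0 CPM. For Gas5 the closest gene was another member, Snhg5 (r = 0.998), followed by Tmem65, Bst1, Rarg and Pik3ip1. Bst1 averaged 8.56, 1.26, 16.8 and 24.8 CPM, a wider span than that of Gas5. For Mir155hg they were Rpl21 (r = 0.94), Eef1b2, Mphosph6, Rpl35a and Eif3h, of which Rpl21, Eef1b2 and Rpl35a are genes of ribosomal proteins or translation.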

How the data were processed

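Total RNA of 12 libraries was sequenced as paired reads of 150 bases from stranded, rRNA-depleted total RNA libraries, per the labels' protocols. The submitters' processing notes name bcl2fastq, cutadapt 1.18, STAR 2.7.0f, RSEM 1.3.1 and the mm10 genome, with no roles. The authors deposited, per the file headers, expected counts, TPM, FPKM (not used here), lengths and effective lengths per gene. Coordinates came from GENCODE mouse release 21, whose IDs and symbols match all 55450 in the tables. Sequences came from RefSeq tables of GRCm38.p6.

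Expected counts were rounded and tested with edgeR 4.0.16 under R 4.3.3: filterByExpr, TMM factors from 0.961 to 1.05, 1 mean per group over all 12 libraries, 8 residual degrees of freedom, the quasi-likelihood test, and Benjamini-Hochberg adjustment over 13636 genes, with a call at adjusted p under 0.05. The SE is the absolute log2 fold change over the square root of F. CPM use the TMM-scaled totals and the deposited TPM serve for levels between genes. Library totals of 20838894 to 31098648 set the counting precision, with a biological coefficient of variation of 0.0393 over all genes. The deposited weighted length, in bases, was tested by exact permutation. The model was tested on simulated data.

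The members and the lists were chosen with earlier results of these data known. Named are all members, up to 4 genes per list with the smallest p in genipin or NAC against vehicle, and the 5 genes most like Malat1, Gas5 and Mir155hg, of which the text describes a part. Single results of some genes are left out of the text, though these genes stay in the counts. Alternatives were RLE size factors, no factors, Malat1 left out of the totals, 2 other filters, DESeq2 1.42.0, a 2-fold rule, a replicate block, effective-length offsets and each library left out. Figures used matplotlib 3.10.9.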

Additional observations from a re-analysis of the deposited data

Results flagged for a closer look

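The difference made by NAC depended on genipin, by the test of the interaction itself (edgeR quasi-likelihood test), for 7 members. On the log2 scale the interaction was 1.12 for Neat1, 0.96 for Mir155hg, 1.00 for Snhg5, 0.70 for Gas5, 0.55 for Snhg8, 0.40 for Snhg12 and 0.18 for Snhg1. Over all genes tested 51.4% were called in the interaction. The sign was positive in each. The log2 fold change with NAC was -1.09 without genipin and 0.04 with it for Neat1, -0.76 and 0.20 for Mir155hg, and 0.41 and 1.11 for Gas5. Without replicate 1 of the combined treatment, which stood apart from its group, the values were 1.09 for Neat1, 0.82 for Mir155hg, 0.93 for Snhg5, 0.67 for Gas5, 0.50 for Snhg8, 0.34 for Snhg12 and 0.13 for Snhg1, and all 7 were called.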

How the results depend on the processing

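Counts of called genes stayed within 1.5 times of the main counts under each setting run except the 2-fold rule. That rule left 1336 of 8312 genes for genipin against vehicle, 1352 of 8134 for NAC against vehicle, 1083 of 7826 for both against vehicle, 1995 of 9446 for both against genipin, 805 of 7239 for both against NAC and 1345 of 7008 for the interaction. Values of members that are near 0 and not called turned sign. Malat1 with genipin was -0.0018 with effective-length offsets. Malat1 with NAC was 0.12 without TMM factors, 0.015 with a filter at a mean of 5 CPM, 0.061 with effective-length offsets, and between -0.076 and 0.066 with 1 library left out (0.028 without vehicle replicate 1, 0.066 without NAC replicate 3). Snhg3 with both against NAC ranged from -0.11 to 0.025 with 1 library left out, positive without replicate 3 of the combined treatment and without NAC replicate 2 (0.0084). Snhg8 in that comparison was -0.058 without TMM factors, -0.0046 with effective-length offsets and between -0.053 and 0.074 with 1 library left out, negative without replicate 1 of the combined treatment (-0.026) and without NAC replicate 3. The difference in weighted length of Malat1 with NAC ranged from -94.1 to 107 bases with 1 library left out. The cause of these turns was not tested. No member's call or direction changed under DESeq2, RLE size factors, Malat1 left out of the totals or no filter on low counts.

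The replicate number as a block gave 8246, 8050, 7768, 9373, 7152 and 6958 genes called in the same order of comparisons, and of the members' calls it changed only Snhg1 with both compounds against vehicle (0.10, adjusted p = 0.0439). After subtraction of the group means, 18 pairs of same-numbered libraries had correlations from -0.0773 to 0.0474, and 5 of 12 libraries were closest to their own number, so the numbers were not used to pair them. Depth limits Mir155hg and Snhg3, which lay near 10 CPM or below. Why the snoRNAs and Mir155 had few counts or none was not tested.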
